A study of Mus musculus with 8 samples.

Results

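The genes described here are 10 chemokine genes that intestinal epithelium is known to express: Ccl20, Cxcl16, Ccl28, Ccl25, Cx3cl1, Cxcl1, Cxcl2, Cxcl5, Cxcl10 and Ccl2. They were listed by name, and each was represented by 1 of the 22206 probe sets of the array, which cover 19505 genes with a symbol. Their expression was compared in the duodenum of 4 mice lacking IκBα in the intestinal epithelium (KO) and of 4 wild-type littermates (WT), measured on Clariom S mouse arrays. KO mice carried floxed IκBα alleles (gene Nfkbia) and Villin-Cre, a recombinase driven in intestinal epithelial cells, which removes the promoter and the start of the gene. The controls are labelled WT, with no word on whether they carried floxed alleles or Cre. No mouse was treated, ages ran from 8 to 11 weeks, and either genotype had 2 males and 2 females. Each KO mouse and its WT sibling form a pair. The siblings of pairs 1 and 2 had the same sex by label, and those of pairs 3 and 4 did not. RNA came from whole homogenized duodenum by the design text, which the sample labels call small intestine, so fewer cells of a type and less RNA per cell cannot be told apart.

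Chemokines are small secreted proteins that guide leukocytes along concentration gradients through G protein-coupled receptors. Ccl20, Cxcl16, Ccl28, Ccl25 and Cxcl10 chiefly attract lymphocytes, and Cxcl1, Cxcl2 and Cxcl5 attract neutrophils through Cxcr2. Cx3cl1 and Ccl2 attract monocytes and related phagocytes. Many chemokine genes are induced by NF-κB, which IκBα holds in the cytoplasm, and the gut epithelium uses them to place lymphocytes and phagocytes in the mucosa.

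Promoter sequences of RefSeq (build GRCm38.p6) were at hand for 7 of the 10 genes, and those of 5 are shown because they set genes that differed between the genotypes beside genes that did not pass the test. Each is the stretch of 250 bases before the annotated start site, 5′ to 3′ along the gene. The windows lie at chr1:83116516-83116765 (plus strand) for Ccl20, chr13:119623569-119623818 (plus strand) for Ccl28, chr5:92348890-92349139 (minus strand) for Cxcl10, chr5:90890995-90891244 (plus strand) for Cxcl1 and chr5:90903649-90903898 (plus strand) for Cxcl2. Capitals mark matches, on either strand, to GGGAANNNCC, a narrow form of the NF-κB site that was written down after these sequences had been seen.
Ccl20: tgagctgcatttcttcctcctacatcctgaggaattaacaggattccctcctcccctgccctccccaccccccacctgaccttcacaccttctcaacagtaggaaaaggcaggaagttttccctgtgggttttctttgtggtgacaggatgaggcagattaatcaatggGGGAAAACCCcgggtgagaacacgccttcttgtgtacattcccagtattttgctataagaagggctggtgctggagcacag
Ccl28: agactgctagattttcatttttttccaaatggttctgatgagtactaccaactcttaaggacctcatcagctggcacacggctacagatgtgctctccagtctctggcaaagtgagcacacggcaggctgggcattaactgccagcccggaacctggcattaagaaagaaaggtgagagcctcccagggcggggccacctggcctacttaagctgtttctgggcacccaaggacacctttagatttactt
Cxcl10: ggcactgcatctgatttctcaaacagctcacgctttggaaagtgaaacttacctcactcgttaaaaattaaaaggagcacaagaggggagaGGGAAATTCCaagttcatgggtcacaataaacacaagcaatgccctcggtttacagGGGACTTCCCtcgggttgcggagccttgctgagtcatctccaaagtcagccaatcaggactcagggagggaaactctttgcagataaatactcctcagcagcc
Cxcl1: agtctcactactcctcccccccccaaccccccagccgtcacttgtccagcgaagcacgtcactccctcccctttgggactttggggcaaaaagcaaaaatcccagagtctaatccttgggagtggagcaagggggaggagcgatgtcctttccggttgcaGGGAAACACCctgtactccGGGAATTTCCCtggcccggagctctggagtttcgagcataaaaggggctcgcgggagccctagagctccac
Cxcl2: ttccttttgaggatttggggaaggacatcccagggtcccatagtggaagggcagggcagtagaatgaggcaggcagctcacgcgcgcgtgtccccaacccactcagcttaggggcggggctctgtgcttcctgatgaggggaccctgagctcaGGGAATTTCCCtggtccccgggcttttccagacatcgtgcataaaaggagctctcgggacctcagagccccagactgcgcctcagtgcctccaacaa
Ccl20 held a match that began 81 bases before the start site. Cxcl1 held 3 matches, which began 90, 71 and 70 bases before it, and the last 2 overlap on opposite strands. Cxcl2 held 2 overlapping matches, at 97 and 96 bases, and Cxcl10 held 2, at 159 and 103 bases. Ccl28, and the windows of Ccl25 and Cx3cl1 that are not shown, held none. The narrow form occurred in 4.94% of all 32851 promoter windows of this length, and the wider form GGGNNNNNCC in 45.8%. The wider form includes every match to the narrow one and added Ccl28 to the genes with a match. A match is a stretch of letters, and binding was not measured in these data.

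The deleted gene was examined before the members. Nfkbia had log2 values of 6.82, 6.65, 7.72 and 6.65 in KO pairs 1 to 4, against 9.75, 9.91, 9.01 and 9.78 in WT. It was lower in all 4 pairs, least in pair 3 (−1.29), with a mean difference of −2.65 ± 0.918 (log2, SD of the within-pair differences, n = 4 pairs, limma adjusted p = 0.0130). The adjusted p was 0.0545, 0.0582 and 0.0512 without pair 1, 2 or 4. Array medians lay between 6.77 and 6.81, and RNA integrity numbers between 7 and 8.7. Throughout the deposited table the mean of KO and WT siblings was almost the same in all 4 pairs (median SD of pair means 0.0175), so a WT value is low where that of its KO sibling is high. The comparisons below therefore rest on within-pair differences. Of all probe sets 5.86% passed the test, 3.16% higher and 2.70% lower in KO. The median difference over all probe sets was −0.015. It became −0.239 when arrays were centred on housekeeping genes and 0.157 when they were centred on epithelial markers. As a guide to background, 95% of the probe sets for olfactory receptors had a mean under 5.65.

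Of the 10 members 3 passed the test, Ccl20, Cxcl16 and Ccl28, all of them higher in KO and all of this group. The other 7 did not pass, against 5.86% of all probe sets called. An unadjusted p under 0.05 was found for 6 of the 10, as for 27.5% of all probe sets. In 5 members every KO value lay above every WT value, as in 15.9% of all probe sets, and in Cxcl1 every KO value lay below, as in 17.2%. Near-equal pair means make groups that do not overlap common in this table. The median difference was 0.61 over the 5 lymphocyte-attracting genes, −0.10 over the 3 neutrophil-attracting genes and 0.00 over the 2 that attract mononuclear cells. The neutrophil-attracting genes ran from −0.24 to 0.95. Their mean level over the arrays, 5.48 to 5.89, was near the background guide, against 8.25 to 9.41 for the lymphocyte-attracting genes. The medians are descriptions of a list chosen with earlier results known.

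**Figure D1:**
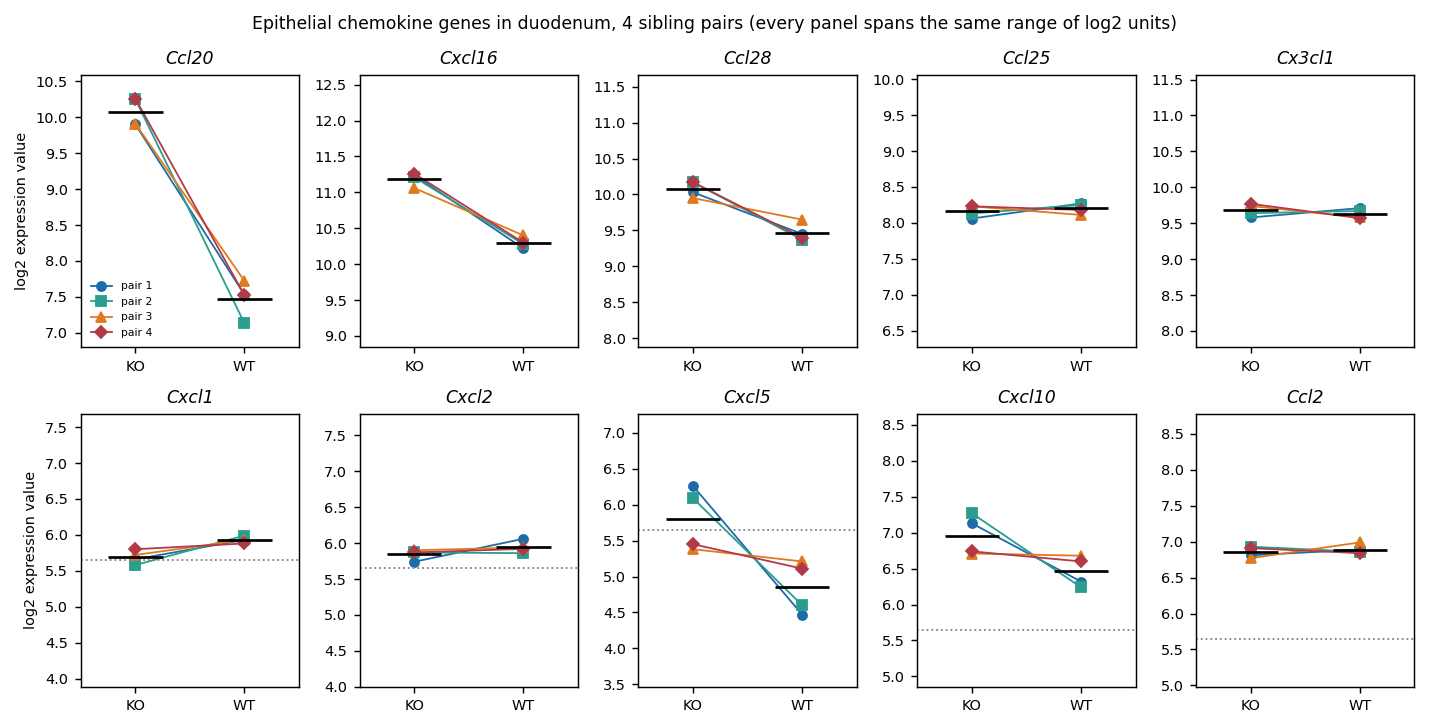
Log2 expression value (vertical axis) of each of the 10 chemokine genes in KO and WT duodenum. Points are arrays, lines join the siblings of a pair, black bars are group means and the dotted line is the background guide of 5.65. Ccl20 averaged 10.08 in KO and 7.47 in WT, while the lines of Ccl25, Cx3cl1, Cxcl2 and Ccl2 are nearly flat.

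Ccl20, the ligand of Ccr6 that draws B cells, dendritic cells and T helper cells to lymphoid follicles of the gut, rose most of the members. It had log2 values of 9.90, 10.25, 9.91 and 10.26 in KO, against 7.53, 7.13, 7.72 and 7.52 in WT. All 4 KO arrays lay far above all WT arrays. The mean difference of 2.60 ± 0.413 is 6.08-fold (95% confidence interval 2.24 to 2.97, limma adjusted p = 0.00183), and it ranks as the 22nd largest of the 22206 by size. Exact sign flips within pairs gave a two-sided p = 0.125, the smallest that 16 flips allow. Without any 1 pair the adjusted p lay between 0.00371 and 0.0135. With pairs 1 and 2 alone the difference was 2.75 and with pairs 3 and 4 alone 2.47, with adjusted p-values of 0.105 and 0.104.

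Cxcl16 encodes a chemokine held in the membrane by a stalk until proteases release it, and its receptor Cxcr6 is carried by T cells and innate lymphocytes. Its log2 values were 11.24, 11.21, 11.06 and 11.26 in KO, against 10.22, 10.28, 10.40 and 10.30 in WT. All 4 KO arrays lay above all WT arrays, and the within-pair differences ran from 0.66 in pair 3 to 1.02 in pair 1. The mean difference was 0.89 ± 0.159, or 1.86-fold (adjusted p = 0.00724), and the adjusted p stayed between 0.0122 and 0.0416 without any 1 pair.

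Ccl28 encodes a mucosal chemokine that draws IgA-producing plasma cells through Ccr10. It had values of 10.03, 10.17, 9.95 and 10.17 in KO, against 9.45, 9.37, 9.65 and 9.40 in WT. The groups did not overlap, although the difference in pair 3, 0.30, was the smallest. Its mean difference was 0.61 ± 0.230, or 1.53-fold (adjusted p = 0.0271). The call was lost without pair 1, 2 or 4 (adjusted p = 0.0843, 0.105 and 0.0888), though the difference was still 0.62, 0.55 and 0.56. Those fits called 204, 145 and 239 of all probe sets, against 1301 with all pairs. It was 0.0536 after centring on housekeeping genes, with a difference of 0.39.

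Ccl25 encodes the small-intestinal chemokine that brings Ccr9-bearing T cells and plasma cells into the gut. It had values of 8.06, 8.13, 8.23 and 8.23 in KO, against 8.27, 8.25, 8.11 and 8.18 in WT. The groups overlapped, and KO was below WT in pairs 1 and 2 and above it in pairs 3 and 4. The mean difference of −0.04 had an interval from −0.24 to 0.16 (adjusted p = 0.789). Centring on epithelial markers turned its sign (0.13).

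Cxcl10, an interferon-induced chemokine that attracts activated T cells through Cxcr3, had values of 7.13, 7.27, 6.71 and 6.74 in KO, against 6.32, 6.24, 6.68 and 6.60 in WT. KO exceeded WT by 0.81 and 1.03 in pairs 1 and 2, and by 0.03 and 0.14 in pairs 3 and 4. The mean difference of 0.50 ± 0.492 did not pass the test (interval 0.08 to 0.93, adjusted p = 0.135). Without the pair block limma gave an adjusted p of 0.0291, but that fit treats siblings as independent and called 34.4% of all probe sets. With the block, centring on epithelial markers gave 0.67 (adjusted p = 0.0409) and centring on housekeeping genes 0.28 (adjusted p = 0.158). The fit centred on epithelial markers called 4304 probe sets higher, against 702 without centring.

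**Figure D2:**
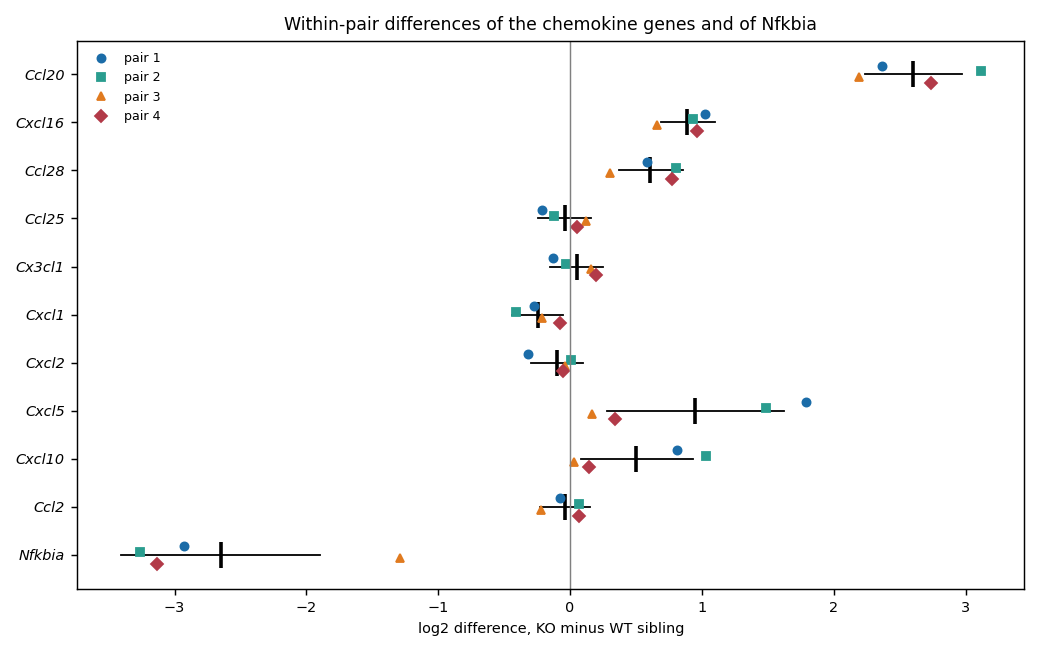
Within-pair log2 difference, KO minus WT sibling (horizontal axis), of the 10 chemokine genes and of Nfkbia. Symbols are the 4 pairs, the vertical tick is the mean and the line its 95% confidence interval from limma. Pair 3 lies nearest to 0 for Nfkbia (−1.29) and lowest for Ccl20 (2.19), Cxcl16 (0.66) and Ccl28 (0.30), and pairs 1 and 2 stand apart from pairs 3 and 4 for Cxcl5 and Cxcl10.

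None of the 3 neutrophil-attracting genes passed the test by limma (2 at unadjusted p under 0.05, 2 called without the block). Cxcl1 had values of 5.66, 5.58, 5.72 and 5.80 in KO, against 5.93, 5.99, 5.93 and 5.88 in WT. KO was below WT in all 4 pairs, by differences of −0.41 to −0.08, yet the mean of −0.24 did not pass the test (interval −0.44 to −0.05, adjusted p = 0.118). Centred on housekeeping genes it was −0.47 (adjusted p = 0.0315), in a fit that called 4388 probe sets lower, against 599 without centring. Cxcl2 had values of 5.74, 5.87, 5.90 and 5.87 in KO, against 6.06, 5.86, 5.94 and 5.92 in WT, with overlapping groups. Its mean difference was −0.10 (interval −0.30 to 0.10, adjusted p = 0.475), and 0.07 when centred on epithelial markers. Both genes averaged only a little above the background guide in both groups, where small changes may not be detectable. Neither interval reaches a rise of the size seen in Ccl28. Differences so near background may be understated, so the intervals cannot exclude such a rise.

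Cxcl5 was the neutrophil-attracting member with the largest difference. It had values of 6.26, 6.09, 5.38 and 5.45 in KO, against 4.47, 4.60, 5.21 and 5.11 in WT. KO exceeded WT by 1.79 and 1.49 in pairs 1 and 2, but by 0.17 and 0.34 in pairs 3 and 4. The mean difference of 0.95 ± 0.812 did not pass the test (interval 0.28 to 1.62, adjusted p = 0.0932). Its WT mean of 4.85 was below the background guide of 5.65, so the difference may be understated. Centring on epithelial markers or on housekeeping genes gave adjusted p-values of 0.0301 and 0.0194. Those fits called 4661 and 4716 of all probe sets, against 1301 without centring.

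Cxcl5 and Cxcl10 were the members whose differences were concentrated in pairs 1 and 2. Adipocyte markers differed in the same pairs: their median difference was 2.08 and 1.64 in pairs 1 and 2, and 0.16 and −0.18 in pairs 3 and 4. Adipoq, the adiponectin gene, differed by 5.10, 4.84, 0.85 and 0.21 in pairs 1 to 4 and Retn, the resistin gene, by 4.17, 3.91, 0.54 and 0.19, and 0 of the 7 measured adipocyte markers passed the test (4 at unadjusted p under 0.05, 4 without the block). The mean level of that list ran from 7.51 to 9.01 in KO arrays and from 6.43 to 7.66 in WT arrays. With the adipocyte mean in the fit Cxcl5 was 0.27 (adjusted p = 0.238) and Cxcl10 0.10 (adjusted p = 0.643), while Ccl20 was 2.51 (adjusted p = 0.00944) and Cxcl16 0.82 (adjusted p = 0.0242). Ccl28 (0.56, adjusted p = 0.0967) and Nfkbia (−2.28, adjusted p = 0.0524) lost their calls in that fit. Pancreatic acinar markers differed in the other pairs, with medians of −0.46, 0.27, −4.13 and −3.37. Cel and Cpb1, digestive enzyme genes, differed by −2.88 and −2.65 on average, and 0 of 8 acinar markers passed the test (4 at unadjusted p under 0.05, 4 without the block). Their mean level ran from 6.03 to 7.90 in KO arrays and from 7.57 to 10.27 in WT arrays. With the acinar mean in the fit Cxcl5 was 1.63 (adjusted p = 0.0110), Cxcl10 0.94 (adjusted p = 0.0123) and Ccl28 0.71 (adjusted p = 0.0530). The part of these markers, and of the sex match of the siblings, in the differences of Cxcl5 and Cxcl10 cannot be told apart in 4 pairs, and the difference between the pairs was not tested.

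**Figure D3:**
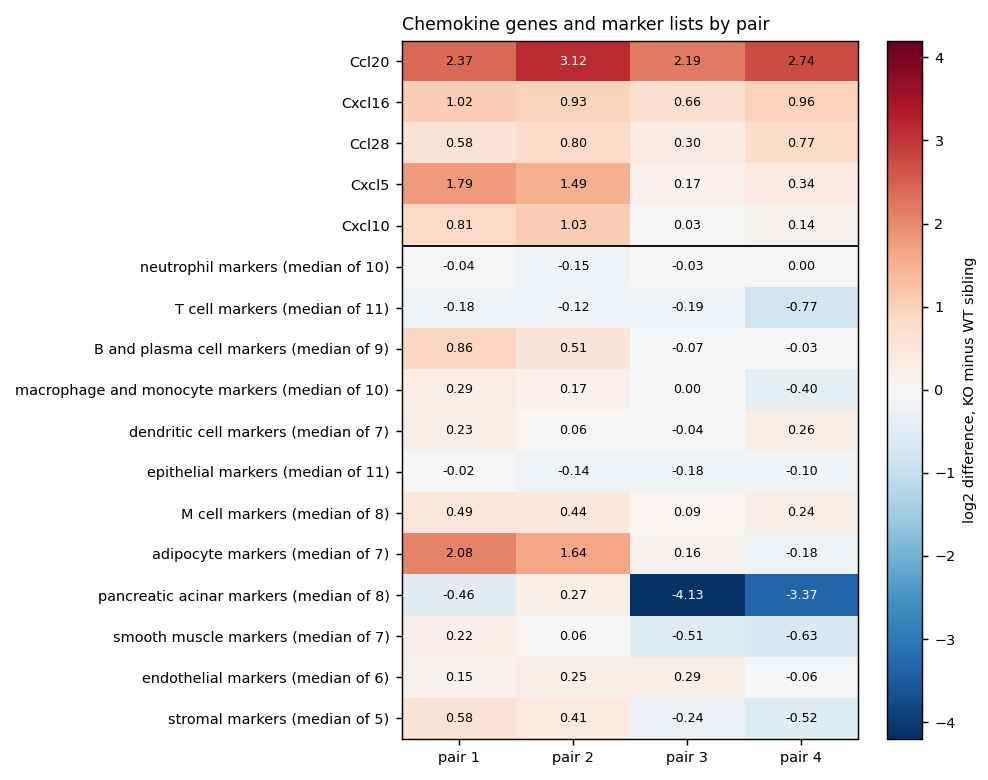
Log2 difference, KO minus WT sibling, in each pair (columns) for 5 chemokine genes (upper rows) and the median of each cell type marker list (lower rows). Colour follows the printed value. Cxcl5 and Cxcl10 are highest in pairs 1 and 2, as are adipocyte markers (2.08 and 1.64), and acinar markers are lowest in pairs 3 and 4 (−4.13 and −3.37), while Ccl20 is above 2 in every pair.

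Both genes that attract mononuclear phagocytes missed the test by limma (0 at unadjusted p under 0.05, 0 called without the block). Cx3cl1, which encodes a membrane-anchored chemokine bound by Cx3cr1 on macrophages that sample the gut lumen, had values of 9.58, 9.64, 9.74 and 9.77 in KO, against 9.71, 9.67, 9.58 and 9.57 in WT. Its difference was negative in pairs 1 and 2 and positive in pairs 3 and 4, with a mean of 0.05 (interval −0.15 to 0.25, adjusted p = 0.738), and of −0.17 when centred on housekeeping genes. Ccl2, the ligand of Ccr2 that calls monocytes from blood, had values of 6.81, 6.93, 6.77 and 6.91 in KO, against 6.89, 6.86, 6.99 and 6.84 in WT. Its groups overlapped, and the mean was −0.04 (interval −0.23 to 0.15, adjusted p = 0.783), or 0.13 when centred on epithelial markers. For both genes the interval did not reach the difference of Cxcl16 (0.89). Over all probe sets differences were more alike within pairs 1 and 2 and within pairs 3 and 4, so the intervals may be too narrow.

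By gene order in RefSeq, Cxcl5, Ppbp, Pf4, Cxcl3, Cxcl15, Cxcl1 and Cxcl2 lie side by side on chromosome 5. Cxcl5 stood apart from its neighbours in pairs 1 and 2. The 4 that are not members ran from −0.20 to 0.10 in mean difference, with a median of −0.09, and none was called by limma, with or without the pair block (0 at unadjusted p under 0.05). Cxcl3, a further Cxcr2 ligand, had 7.89, 7.93, 7.88 and 7.99 in KO, against 8.06, 8.01, 8.13 and 7.94 in WT, and a difference of −0.11 (adjusted p = 0.398). Its interval was −0.30 to 0.08, on a probe set well above the background guide. Cxcl15 differed by −0.20 (adjusted p = 0.242).

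Among all 25 further chemokine genes limma with the pair block called 0 higher and 0 lower (7 at unadjusted p under 0.05), and 8 were called without the block. These counts are near the shares over all probe sets, 27.5% and 34.4%. Their median difference was −0.06. The 12 that attract lymphocytes had a median of −0.03. Of these, Cxcl13, which organizes B cell follicles, differed by 1.07, 0.93, 0.26 and −0.10 in pairs 1 to 4 (mean 0.54, adjusted p = 0.143), again most in pairs 1 and 2. Ccl27a, a Ccr10 ligand like Ccl28, was below WT in all 4 pairs, with differences of −0.87 to −0.15 (mean −0.49, adjusted p = 0.0692). The 9 that attract monocytes and eosinophils had a median of 0.01. Ccl12, a mouse Ccr2 ligand, was higher in all 4 pairs (mean 0.40, adjusted p = 0.0539), and Ccl8 differed by 1.62, 0.08, 0.77 and −0.11 (mean 0.59, adjusted p = 0.216).

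**Figure D4:**
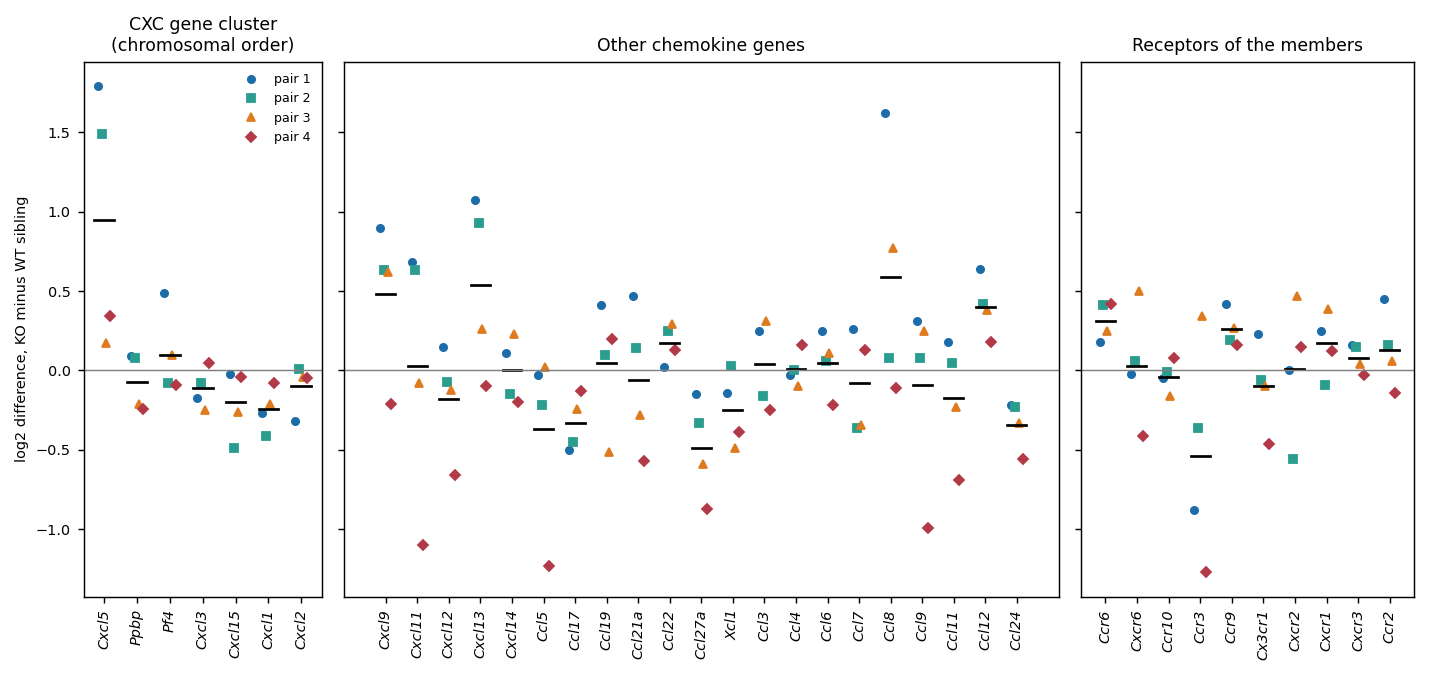
Within-pair log2 difference, KO minus WT sibling (vertical axis), of the CXC gene cluster in chromosomal order, of other chemokine genes and of the receptors of the members. Symbols are the 4 pairs and black bars the mean. No bar outside Cxcl5 (0.95) exceeds the 0.59 of Ccl8, and the receptor means run from −0.54 to 0.31.

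The receptors of the members were measured in the same tissue, and 0 of 10 passed the test by limma (2 at unadjusted p under 0.05, 2 called without the block). Ccr6, the receptor of Ccl20, had 6.41, 6.53, 6.40 and 6.48 in KO, against 6.23, 6.12, 6.15 and 6.06 in WT. All KO values lay above all WT values, with a mean difference of 0.31 ± 0.119 (interval 0.13 to 0.50, adjusted p = 0.0634). Ccr9, the receptor of Ccl25, was also higher in 4 of 4 pairs (mean 0.26, adjusted p = 0.0926). Cxcr6, the receptor of Cxcl16, differed by 0.03 (interval −0.31 to 0.37), and Ccr10, that of Ccl28, by −0.04 (interval −0.21 to 0.14). Ccr3, a further Ccl28 receptor found on eosinophils, differed by −0.54 (interval −1.12 to 0.04). Cxcr2, shared by the neutrophil-attracting genes, differed by 0.01, Cxcr1 by 0.17, Cxcr3 by 0.08, Ccr2 by 0.13 and Cx3cr1 by −0.10. The mean level of 5 of the 10 receptors was below the background guide. These were Ccr10, Ccr3, Cxcr2, Cxcr1 and Ccr2, and Cxcr6 lay at the guide. Small changes of these receptors may not be detectable.

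Atypical receptors, which bind chemokines without signalling for migration, gave 0 calls of 5 (2 at unadjusted p under 0.05, 2 called without the block). Ccrl2, a presenting receptor, was higher in all 4 pairs (mean 0.31, adjusted p = 0.104), as was Ackr4, which removes Ccl25 among other chemokines (mean 0.22, adjusted p = 0.131). Of 6 proteases that release or trim chemokines 0 passed (1 at unadjusted p under 0.05, 1 without the block). Adam10, a sheddase of Cxcl16 and Cx3cl1, was higher in 4 of 4 pairs (mean 0.35, adjusted p = 0.0512), and the matrix protease gene Mmp7 differed by 0.27 (adjusted p = 0.234). Of 12 cytokines known to induce chemokine genes 2 rose and 0 fell, with a median of −0.07, while 3.16% of all probe sets rose. Tnf, the tumour necrosis factor gene, rose by 2.97 ± 0.385 (adjusted p = 0.00114) and kept its call without any 1 pair. Il1b, the interleukin-1β gene, rose by 0.67 ± 0.338 (adjusted p = 0.0399), but had an adjusted p of 0.113, 0.131 and 0.0940 without pair 1, 2 or 3. The mean level of 4 of the 12 cytokines, Il1b among them, was below the background guide. For Il1b the WT mean lay below the guide and the KO mean above it, so its difference may be understated.

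Markers of the cells that the chemokines attract were read beside them. For comparison, 3.16% of all probe sets rose and 2.70% fell. Of 10 measured neutrophil markers 1 rose and 0 fell, with a median of −0.09. The mean level of that list ran from 5.46 to 5.49 in KO arrays and from 5.49 to 5.52 in WT arrays, and 5 of the 10 lay below the background guide. The gene that rose, Ltf (lactoferrin, 0.82 ± 0.354, adjusted p = 0.0271), lost its call without pair 2, 3 or 4 (0.105, 0.0691 and 0.0814). Lactoferrin is also made by epithelia. S100a8 and S100a9, abundant neutrophil proteins, differed by 0.48 and −0.06 (adjusted p = 0.133 and 0.726). In all 4 pairs 1 marker of the list was higher and 2 were lower. The 2 were Camp (−0.43, adjusted p = 0.0613) and Mmp8 (−0.33, adjusted p = 0.0659), and Retnlg differed by −0.67 (adjusted p = 0.117). S100a8, S100a9 and Mmp8 averaged under the background guide in both groups.

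Of 11 T cell markers Cd4 rose (0.39 ± 0.134, adjusted p = 0.0427) and 0 fell, with a median of −0.31. Cd4 lost its call without any 1 pair (adjusted p from 0.0878 to 0.146). In all 4 pairs 1 marker of the list was higher and 3 were lower. The 3 were Cd3g (−0.56, adjusted p = 0.0648), Cd3e (−0.30, adjusted p = 0.173) and Itgae (−0.32, adjusted p = 0.0660), which tethers intraepithelial T cells to the epithelium. The mean level of the list ran from 7.55 to 7.85 in KO arrays and from 7.93 to 8.18 in WT arrays. Of 9 B and plasma cell markers Cd22, a B cell inhibitory receptor, rose (0.40 ± 0.103, adjusted p = 0.0355), also without holding when any 1 pair was left out (0.0692 to 0.131). The median of that list was 0.40, and 0.86, 0.51, −0.07 and −0.03 in pairs 1 to 4.

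Of 7 dendritic cell markers Clec9a (0.62 ± 0.290, adjusted p = 0.0366) and Flt3 (0.39 ± 0.131, adjusted p = 0.0439) rose and 0 fell, and both averaged under the background guide in both groups. The median of the list was only 0.09, and the other 5 markers, the lowest at −0.05, did not pass the test. Clec9a lost its call without pair 1, 2 or 4 (0.101, 0.105 and 0.110) and Flt3 without any 1 pair (0.0929 to 0.130). Of 10 macrophage and monocyte markers limma called 0 (3 at unadjusted p under 0.05, 3 without the block), with Ly6c2 at 0.53 (adjusted p = 0.0587) and Lyz2, a lysozyme gene of macrophages, at −0.50 (adjusted p = 0.147).

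The sources of the chemokines were read in the same way. Of 11 epithelial markers 2 rose, Elf3, an epithelial transcription factor (0.54 ± 0.111, adjusted p = 0.0195), and Cdx1, an intestinal homeobox factor (0.44 ± 0.128, adjusted p = 0.0332), and 0 fell. The median of the list was −0.11. In 5 of the 11 every KO value lay below every WT value without passing the test, against 17.2% of all probe sets. In 3 of the 11, Elf3 and Cdx1 among them, every KO value lay above, against 15.9% of all probe sets. Elf3 lost its call without pair 1, 2 or 4 (adjusted p = 0.0704, 0.0714 and 0.0721). Cdx1 lost its call without any 1 pair (adjusted p = 0.107, 0.0999, 0.0691 and 0.103). The mean level of the list ran from 11.63 to 11.70 in KO arrays and over the same range in WT arrays. Of 8 markers of M cells, the antigen-sampling cells of the follicle-associated epithelium where Ccl20 is made, 3 rose and 0 fell. The median of the list was 0.34, and 3.16% of all probe sets rose. The markers that rose were Pglyrp1 (1.65 ± 0.315, adjusted p = 0.00355), Tnfaip2 (1.04 ± 0.439, adjusted p = 0.0234) and the RANK gene Tnfrsf11a (0.48 ± 0.214, adjusted p = 0.0427). Spib (0.44, adjusted p = 0.0865), Anxa5 (0.24), Marcksl1 (−0.19) and Sox8 (0.00) did not pass the test. Pglyrp1 kept its call without any 1 pair, Tnfaip2 lost it without pair 1, 2 or 4 (0.0708, 0.0909 and 0.0569) and Tnfrsf11a without any (0.0704 to 0.118). Gp2, the M cell receptor that acinar cells also make, differed by −0.14, −0.02, −3.24 and −3.10 in pairs 1 to 4, low in the pairs in which acinar markers were low. Smooth muscle, endothelial and stromal markers gave 0 calls of 7, 6 and 5 (0, 4 and 0 at unadjusted p under 0.05, and 0, 4 and 0 without the block), with medians of −0.22, 0.18 and 0.04. The largest differences were those of Cnn1 (−0.37) and Tagln (−0.32) for muscle, Cdh5 (0.38) and Pecam1 (0.33) for endothelium, and Col1a2 (0.26) and Dcn (−0.25) for stroma. Of 10 housekeeping genes Gusb rose (0.37 ± 0.121, adjusted p = 0.0449), a call lost without any 1 pair (0.0884 to 0.133), and the median was 0.20.

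For each member that rose, the 3 genes with the most similar differences were named by the Euclidean distance over the 4 within-pair differences, among 18467 other genes. For Ccl20 they were Cfhr2, a complement factor H-related gene (distance 0.355), Pigz, an enzyme of the lipid anchors of membrane proteins (0.783), and Tnf (0.867). For Cxcl16 they were the antiviral membrane protein gene Bst2 (0.167), Pik3r4, a regulatory subunit of a lipid kinase (0.172), and Cyba, a subunit of NADPH oxidases (0.191). For Ccl28 they were the heparanase gene Hpse (0.108), Fermt1, an integrin adaptor of epithelia (0.160), and the glutathione transferase gene Gstp2 (0.178). The distance grows with the size of the differences, and it rests on 4 pairs. All of these genes passed the test, but Pik3r4, Hpse, Fermt1 and Gstp2 did not without pair 1, 2 or 4 (adjusted p from 0.0501 to 0.118). As they were picked for differences like those of called members, their calls are not separate evidence.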

How the data were processed

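Duodenal RNA of 8 mice was measured on 1-colour Clariom S arrays. The deposited log2 values per probe set were used as given. Per the submitters' processing notes they came from RMA and Transcriptome Analysis Console 4.0. Further settings were not given in the sources used. The near-equal pair means are a property of the deposited log2 table that no source used here records. Siblings deviated from their group means in opposite directions (r from −0.913 to −0.870 over probe sets).

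KO was compared with WT in limma 3.58.1 (R 4.3.3, lmFit and eBayes) with the sibling pair, numbered in the labels, as a block, and Benjamini-Hochberg adjustment over all 22206 probe sets at 0.05 (two-sided). The number of arrays limits the precision, with 3 residual degrees of freedom before variance moderation. The 4 differences were more alike within pairs 1 and 2 (r = 0.682) and within pairs 3 and 4 (r = 0.673) than otherwise (0.346 to 0.420), so p-values may be too small. The fit was tested on simulated data in which the pair differences were independent, so that test cannot address the likeness between pairs. Alternatives changed the block, covariates (sex, RNA integrity, adipocyte or acinar mean), centring, normalization, dim filter, variance model, threshold and the pairs included.

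Probe sets were named from GEO's platform table, and all 19572 with a symbol had the RefSeq symbol of their gene ID. For a gene with several, the highest mean was used. The text names all members, Nfkbia, the receptors, and in each other list the called genes (at most 6) or otherwise the 2 with the largest difference. Itgae, Cd3g, Cd3e, S100a8, S100a9, Camp, Mmp8, Retnlg, Spib, Anxa5, Marcksl1, Sox8 and Gp2 were added after their values were seen. Members and lists were chosen with earlier results of these data known.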

Additional observations from a re-analysis of the deposited data

Results flagged for a closer look

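Nfkbia stood out in pair 3. Its KO value there was 7.72, against 6.65 to 6.82 in the other KO arrays, a gap that is 0.841 of the range of the 4 values. The within-pair difference of −1.29 in pair 3 lay apart from those of −2.93 to −3.26 in the other pairs by 0.832 of their range. Both shares exceed Dixon's 95% limit for 4 values, among 33 groups of 4 values examined, and chance exceeds it in about 1 in 20 groups. The KO value and the difference are not independent, as pair means are nearly equal. The WT value of pair 3, 9.01, likewise lay below the 9.75 to 9.91 of the other WT arrays. Which of the siblings deviates cannot be told from these values.

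Ccl25 and Cx3cl1 moved in opposite directions in pairs of same-sex siblings (1 and 2) and of siblings of different sex (3 and 4). The mean difference in the same-sex pairs less that in the other pairs was −0.25 for Ccl25 and −0.26 for Cx3cl1. The difference was not tested, and adipocyte and acinar markers separate the pairs in the same way.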

How the results depend on the processing

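Ccl20 and Cxcl16 kept their direction under all 19 alternatives, and their call in all but the fits on 2 pairs alone. Ccl28 also kept its direction, but was not called in 9 of 19 alternatives (adjusted p from 0.0530 to 0.241 where the threshold was 0.05). Against 3 members called, limma called 6 with no replicate block, 5 centred on epithelial markers and 0 with pairs 1 and 2 or pairs 3 and 4 alone (6 and 3 at unadjusted p under 0.05). Against 1301 probe sets called, 7648 were called with no replicate block, 2018 with a random block, 464 with sex, 364 with RNA integrity and 855 with the acinar mean added to the block. There were 4661 centred on epithelial markers, 4716 on housekeeping genes, 1997 with trend and robust variance, 97 at a threshold of 0.01 and 3304 at 0.1. Pairs 1 and 2 alone gave 0 (5278 at unadjusted p under 0.05), pairs 3 and 4 alone 26, and leaving out any 1 pair 145 to 459. The share of higher calls, 54.0%, was 92.3% centred on epithelial markers and 6.96% on housekeeping genes.

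Small differences without a call turned their sign. Centred on epithelial markers, Ccl25 was 0.13, Cxcl2 0.07, Ccl2 0.13, Ccr10 0.14, Cx3cr1 0.07 and Cxcl3 0.06. Centred on housekeeping genes, Cx3cl1 was −0.17, Cxcr6 −0.19, Cxcr2 −0.21, Cxcr1 −0.06, Cxcr3 −0.14, Ccr2 −0.09 and Ackr4 −0.0013. With RNA integrity Cxcr6 was −0.02 and Cxcr2 −0.03, and with quantile normalization Ccr10 was 0.03. With the adipocyte mean Ccl25 was 0.08, Ccr2 −0.05 and the collagen gene Col1a2 −0.0019. With the acinar mean Cx3cl1 was −0.07, Ccl2 0.01, Cxcr6 −0.0011, Cx3cr1 0.06, Cxcr2 −0.32, and the muscle and stromal genes Cnn1 0.02, Tagln 0.20 and Dcn 0.38. With pairs 1 and 2 alone Cx3cl1 was −0.08, Cx3cr1 0.09, Cxcr2 −0.28, Cnn1 0.03, Tagln 0.21 and Dcn 0.40, and with pairs 3 and 4 alone Ccl25 was 0.09 and Ccr2 −0.04. Leaving out 1 pair gave −0.09 to 0.02 for Ccl25, −0.08 to 0.02 for Ccl2, −0.12 to 0.18 for Cxcr6, −0.07 to 0.01 for Ccr10, −0.21 to 0.02 for Cx3cr1, −0.14 to 0.21 for Cxcr2 and −0.47 to 0.09 for Dcn. The cause of these changes was not tested. Of the other named genes, 728 gene-by-setting results kept direction and call, 166 lost a call and 71 gained one. With dim probe sets left out Cxcl5 has no value. Signal near background limits Cxcl1, Cxcl2 and Cxcl5.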

Other observations

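Pair 3 had the smallest difference of Ccl20 (2.19), Cxcl16 (0.66) and Ccl28 (0.30), and also the smallest fall of Nfkbia (−1.29). Pair 2 had the largest difference of Ccl20 (3.12) and Ccl28 (0.80) and the largest fall of Nfkbia (−3.26), whereas Cxcl16 differed most in pair 1 (1.02, against 0.93 in pair 2). These are values of 4 pairs, and no test was run on their order.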
